A study of Homo sapiens with 8 samples.

Results

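Genes for 2 large families of splicing regulators, the heterogeneous nuclear ribonucleoproteins (hnRNPs) and the serine/arginine-rich (SR) proteins, were followed in human AB8/13 cells after knockdown of ATOH8. Members were chosen by name: protein-coding genes whose symbol begins with HNRNP or is SRSF with a number, the SR-like genes TRA2A and TRA2B, and PTBP1, PTBP2, PTBP3, RBFOX2, MBNL1, MBNL2, CELF1, ESRP1, ESRP2 and QKI. Symbols with a hyphen were left out. This gave 49 of 60564 genes in the table, namely 25 hnRNP genes, 14 SR and SR-like genes and 10 other regulators.

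The data were polyadenylated RNA sequencing counts from 8 libraries of AB8/13, a conditionally immortalised human podocyte line. In the knockdown group, 4 libraries came from cells transfected with shRNA directed at ATOH8, a basic helix-loop-helix transcription factor. In the control group, 4 libraries came from cells transfected with non-targeting shRNA. Both shRNAs were delivered with a lipid reagent, and all cells had grown at 33 °C before 5 days at 37 °C. No source used here states how many shRNAs targeted ATOH8 or whether replicates were separate transfections. P-values therefore measure only the spread among these libraries, part of which may be technical.

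Pre-mRNA splicing removes introns, and which exons are kept depends on proteins that bind the transcript beside each splice site. SR proteins bind exonic enhancers through RNA recognition motifs and recruit the spliceosome through their arginine/serine-rich tails, while hnRNPs coat nascent transcripts and often repress nearby exons. Many genes of both families also limit their own output by splicing in exons that carry a stop codon, so that the transcript is destroyed by nonsense-mediated decay. In epithelial cells such as those of the kidney, ESRP proteins favour epithelial exons, and QKI, RBFOX2 and PTBP1 act on exons that differ between epithelial and mesenchymal cells.

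The libraries held 23229160 to 25277868 counts in knockdown and 21108695 to 27109043 in control. ATOH8 had 51, 71, 61 and 53 counts in knockdown libraries, against 175, 160, 122 and 128 in control libraries (log2 fold change -1.26, SE 0.127, edgeR adjusted p = 1.78e-09). The 8 podocyte markers summed to 697 to 741 CPM in knockdown and 871 to 905 CPM in control. Of these markers, KIRREL1, CD2AP and PODXL fell, SYNPO rose to 23.3 to 27.7 CPM in knockdown, against 15.6 to 18.1 CPM in control, and WT1 did not pass. The other 3 had too few counts to test, with at most 6 counts of NPHS1 in any library. Levels are in CPM, the usual measure of counts relative to library size, here after TMM scaling. Summed levels of marker genes of other cell types did not overlap between the groups. The 6 mesangial and pericyte markers summed to 117 to 135 CPM in knockdown and 40.7 to 43.1 CPM in control (4 rose, 1 fell), and the 6 epithelial markers to 1050 to 1170 and 748 to 775 CPM (4 rose, none fell, CDH1 at most 3 counts). The 6 endothelial markers summed to 16.6 to 19.4 and 10.8 to 12.5 CPM (2 rose, none fell, PECAM1 at most 1 count), and the 5 leukocyte markers to 103 to 113 and 76.4 to 86.4 CPM (2 rose, none fell, PTPRC at most 2 counts). Nearly all of the leukocyte sum was CD68, with 101 to 110 CPM in knockdown and 75 to 85.2 CPM in control. Most of the mesangial and pericyte sum was CSPG4, with 76.9 to 93.2 and 22 to 23.2 CPM. The part of these differences in the results on splicing regulators was not tested.

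Splicing regulator genes were mostly lower in ATOH8 knockdown, by amounts well under 2-fold. Of the 45 members with enough counts to test, 24 fell, 5 rose and 16 did not pass an adjusted p of 0.05, with a median log2 fold change of -0.14. Over all 16884 genes tested, 25.9% fell and 25.2% rose, together 51.1%, around a median of -0.000721. The knockdown and control libraries did not overlap for 25 members that were lower and 5 that were higher, against 23.2% and 22.4% of all genes tested. A called change of at least 0.3 on the log2 scale was found for 10 members downward and 1 upward, against 11.6% and 13.3% of all genes. In bulk RNA, fewer cells with a transcript and less of it per cell cannot be told apart.

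The lower level also stood in the members' share of all counts of each library, which is relative to library size but without TMM scaling. The members together took 0.838%, 0.861%, 0.828% and 0.850% of all counts in knockdown libraries 1 to 4, against 0.900%, 0.957%, 0.941% and 0.938% in control libraries 1 to 4. The groups did not overlap, and control library 1 was the lowest of its group. Most of the difference was in the hnRNP genes, which summed to 5056 to 5193 CPM in knockdown and 5682 to 5972 CPM in control. The SR and SR-like genes summed to 1689 to 1769 CPM in knockdown and 1848 to 1979 CPM in control, and the other regulators to 1541 to 1583 and 1606 to 1620 CPM. Among the other regulators, QKI alone averaged 286 CPM in knockdown and 351 CPM in control, a wider gap than that of their sums on average. The median log2 fold change was -0.187 for hnRNP genes, -0.113 for SR and SR-like genes and 0.0437 for the other regulators. The median gene of the other regulators was thus not lower, although their summed level was lower in every knockdown library. The median member is an abundant transcript, and calls are more frequent among abundant genes. Of the 2249 genes at 100 CPM or more, 37.9% fell and 31.4% rose, whereas of the 32 members at that level 18 fell (56.2%) and 3 rose (9.38%).

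**Figure D1:**
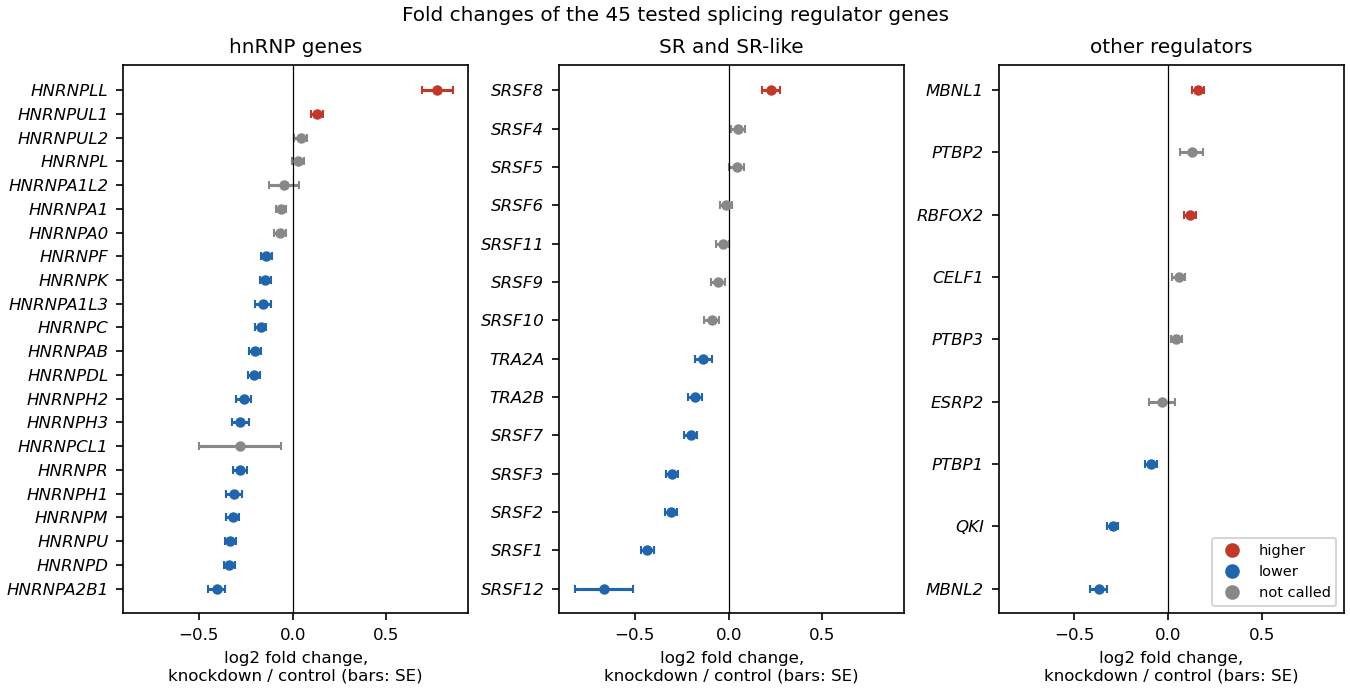
Log2 fold change (knockdown over control, x axis) of each tested member with its standard error, by role group; blue marks genes that fell, red genes that rose and grey genes not past an adjusted p of 0.05. Of 22 hnRNP genes 14 were lower and 2 higher, and of 14 SR and SR-like genes 7 were lower and 1 higher. Of 9 other regulators 3 were lower and 2 higher, near the 25.9% and 25.2% of all genes tested.

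Promoter sequence of 4 members is shown as examples, not as the largest changes. HNRNPU and HNRNPA2B1 are among the largest falls of abundant hnRNP genes, and MBNL2 and MBNL1 are paralogs that moved in opposite directions. Each line gives the 250 bases before the annotated start from RefSeq on GRCh38.p14, 5′ to 3′ on the strand of the gene, with matches to the E-box CANNTG in capitals, the word that helix-loop-helix proteins are known to bind. The windows lie at chr1:244864544-244864793 on the minus strand (HNRNPU), chr7:26200747-26200996 on the minus strand (HNRNPA2B1), chr13:97141584-97141833 on the plus strand (MBNL2) and chr3:152268679-152268928 on the plus strand (MBNL1).
HNRNPU: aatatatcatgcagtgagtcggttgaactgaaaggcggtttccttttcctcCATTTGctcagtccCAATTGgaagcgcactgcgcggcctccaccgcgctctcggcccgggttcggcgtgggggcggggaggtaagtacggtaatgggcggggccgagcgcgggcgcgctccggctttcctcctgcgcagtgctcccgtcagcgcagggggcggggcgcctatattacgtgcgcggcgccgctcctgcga
HNRNPA2B1: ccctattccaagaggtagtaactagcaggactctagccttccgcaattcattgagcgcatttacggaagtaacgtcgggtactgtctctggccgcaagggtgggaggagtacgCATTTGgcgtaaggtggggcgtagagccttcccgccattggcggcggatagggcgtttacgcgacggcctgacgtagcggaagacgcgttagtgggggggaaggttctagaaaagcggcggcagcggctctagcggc
MBNL2: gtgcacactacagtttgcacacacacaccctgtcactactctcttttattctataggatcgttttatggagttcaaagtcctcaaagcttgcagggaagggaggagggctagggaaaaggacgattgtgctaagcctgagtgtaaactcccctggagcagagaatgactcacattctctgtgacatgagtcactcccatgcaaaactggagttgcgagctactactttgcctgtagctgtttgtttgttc
MBNL1: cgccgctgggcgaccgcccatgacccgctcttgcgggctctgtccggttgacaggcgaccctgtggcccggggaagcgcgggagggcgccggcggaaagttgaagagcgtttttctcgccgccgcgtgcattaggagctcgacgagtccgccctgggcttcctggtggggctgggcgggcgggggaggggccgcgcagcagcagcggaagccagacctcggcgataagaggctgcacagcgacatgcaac

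The HNRNPU window held 2 E-boxes, the HNRNPA2B1 window 1, and neither MBNL window held one. The windows of SRSF1, which fell more, and HNRNPLL, which rose more, are not shown and held 0 E-boxes each. The MBNL1 window had 70.8% G and C bases and 30 CG dinucleotides, and the MBNL2 window 46.8% and 3. Promoters were matched for 38 of the 45 tested members, and their median of 65.6% G and C bases compares with 64.8% over the 11710 promoters of tested genes. CANNTG, which reads the same on both strands, was in 18 of the 38 windows (47.4%), in 12 of the 20 of members that fell (60%), and in 53.7% of those of tested genes and 62.2% of all 27305. CCAAT on either strand was in 16 windows (42.1%), in 10 of the 20 (50%), and in 34.7% of those of tested genes and 33% of all. TATAAA on either strand was in 5 windows (13.2%), in 4 of the 20 (20%), and in 5.69% of those of tested genes and 11.1% of all. In the 4 windows of members that rose, CANNTG was in 1 (25%), CCAAT in 2 (50%) and TATAAA in 0. Overlap between these words occurred in 1 member window, that of HNRNPU, where both of its CCAAT matches, 1 on each strand, overlap the second E-box. These matches describe letters in a window and no binding was measured.

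Among the hnRNP genes, the falls took in most of the abundant members. HNRNPA2B1, which packages nascent transcripts and sorts RNAs for transport, had 546, 571, 501 and 538 CPM in knockdown libraries 1 to 4, against 651, 751, 723 and 730.0 CPM in control libraries 1 to 4. Every knockdown library was below every control library, with control library 1 nearest to the knockdown libraries. The log2 fold change of HNRNPA2B1 was -0.41 (SE 0.0451, edgeR adjusted p = 1.68e-06), which left 75.5% of the control level.

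HNRNPD, also called AUF1, binds AU-rich elements and speeds the decay of unstable mRNAs. It had 187, 186, 183 and 179.7 CPM in knockdown libraries, against 224, 238, 237 and 230.4 CPM in control libraries, with no overlap (log2 -0.34, SE 0.0313, edgeR adjusted p = 3.74e-10). HNRNPU, a nuclear scaffold protein that binds chromatin and RNA, had 479, 492, 473 and 490.2 CPM in knockdown libraries, against 592.5, 617, 616 and 609 CPM in control libraries. Its groups stood far apart for their spread, and the log2 fold change was -0.33 (SE 0.0295, edgeR adjusted p = 1.52e-10).

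HNRNPM, which acts on exons of CD44 and other genes in mesenchymal cells, had 221, 220.6, 213 and 220.2 CPM in knockdown libraries, against 257, 274, 279 and 282 CPM in control libraries. Control library 1 was the lowest of its group and still above every knockdown library (log2 -0.32, SE 0.0325, edgeR adjusted p = 2.11e-09). HNRNPH1, a protein that binds runs of G, had 249.5, 261, 225 and 242 CPM in knockdown libraries, against 294, 322, 306 and 291 CPM in control libraries. The spread was wider here, knockdown library 3 was the lowest, and the groups did not overlap (log2 -0.31, SE 0.0419, edgeR adjusted p = 4.12e-06). HNRNPK, the poly(C)-binding hnRNP, was shown for its level, with 547, 560.4, 570.3 and 561 CPM in knockdown libraries, against 619, 628, 619.7 and 611 CPM in control libraries. It fell by 0.15 on the log2 scale (SE 0.029, edgeR adjusted p = 0.000107), a smaller change than those above that was still outside the spread of either group.

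The other hnRNP genes that fell had log2 fold changes between -0.28 and -0.14. They were HNRNPR, a relative of the mRNA-binding protein SYNCRIP, HNRNPH3 and HNRNPH2 of the G-run binding subfamily, HNRNPDL and HNRNPAB, both close relatives of HNRNPD, HNRNPC, which binds uridine tracts, HNRNPA1L3, a retrocopy of HNRNPA1, and HNRNPF. HNRNPAB had 211 ± 5.11 CPM in knockdown and 243 ± 7.40 CPM in control libraries (SD, n = 4), and HNRNPC had 396.5 ± 9.30 and 446 ± 6.82 CPM. All of these 8 genes had non-overlapping groups.

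HNRNPLL, a paralog of HNRNPL that controls CD45 exons in T cells, moved the other way and was the only member that rose by at least 0.3 on the log2 scale. It had 12.9, 12.1, 15.5 and 15.2 CPM in knockdown libraries, against 7.50, 8.44, 8.37 and 8.34 CPM in control libraries. All knockdown libraries were higher, though they spread more than the control libraries, and the level rose 1.71-fold (log2 0.77, SE 0.0827, edgeR adjusted p = 6.09e-09). Its paralog HNRNPL, a binder of CA repeats, had 248 ± 8.73 CPM in knockdown and 243 ± 4.08 CPM in control libraries, with overlapping groups and a log2 difference of 0.03 (SE 0.0317, edgeR adjusted p = 0.483). HNRNPUL1, which takes part in the DNA damage response, rose at a high level, with 309.6 ± 6.77 CPM in knockdown and 283 ± 8.64 CPM in control libraries (log2 0.13, SE 0.0312, edgeR adjusted p = 0.00103), and HNRNPUL2 had a log2 difference of 0.04 (SE 0.0352).

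A further 4 hnRNP genes with counts did not pass the threshold, all with negative differences. HNRNPA1, the repressor of many exons, had 564 ± 2.79 CPM in knockdown and 589 ± 7.17 CPM in control libraries, which did not overlap, with a log2 difference of -0.06 (SE 0.0285, edgeR adjusted p = 0.0715, and 0.00655 by DESeq2). HNRNPA0, a binder of AU-rich elements, likewise had non-overlapping groups at a log2 difference of -0.07 (SE 0.0313, edgeR adjusted p = 0.0794). HNRNPA1L2 (log2 -0.05, SE 0.0787) and HNRNPCL1 (log2 -0.28, SE 0.219) overlapped between the groups. HNRNPCL2, HNRNPCL3 and HNRNPCL4, near-identical copies of each other, had 0 counts in all libraries. The A1 values are less certain than the rest because 74 annotated HNRNPA1 pseudogene rows held counts equal to 21.1% of those of HNRNPA1 itself, and for HNRNPC 9 pseudogene rows held 6.14%.

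**Figure D2:**
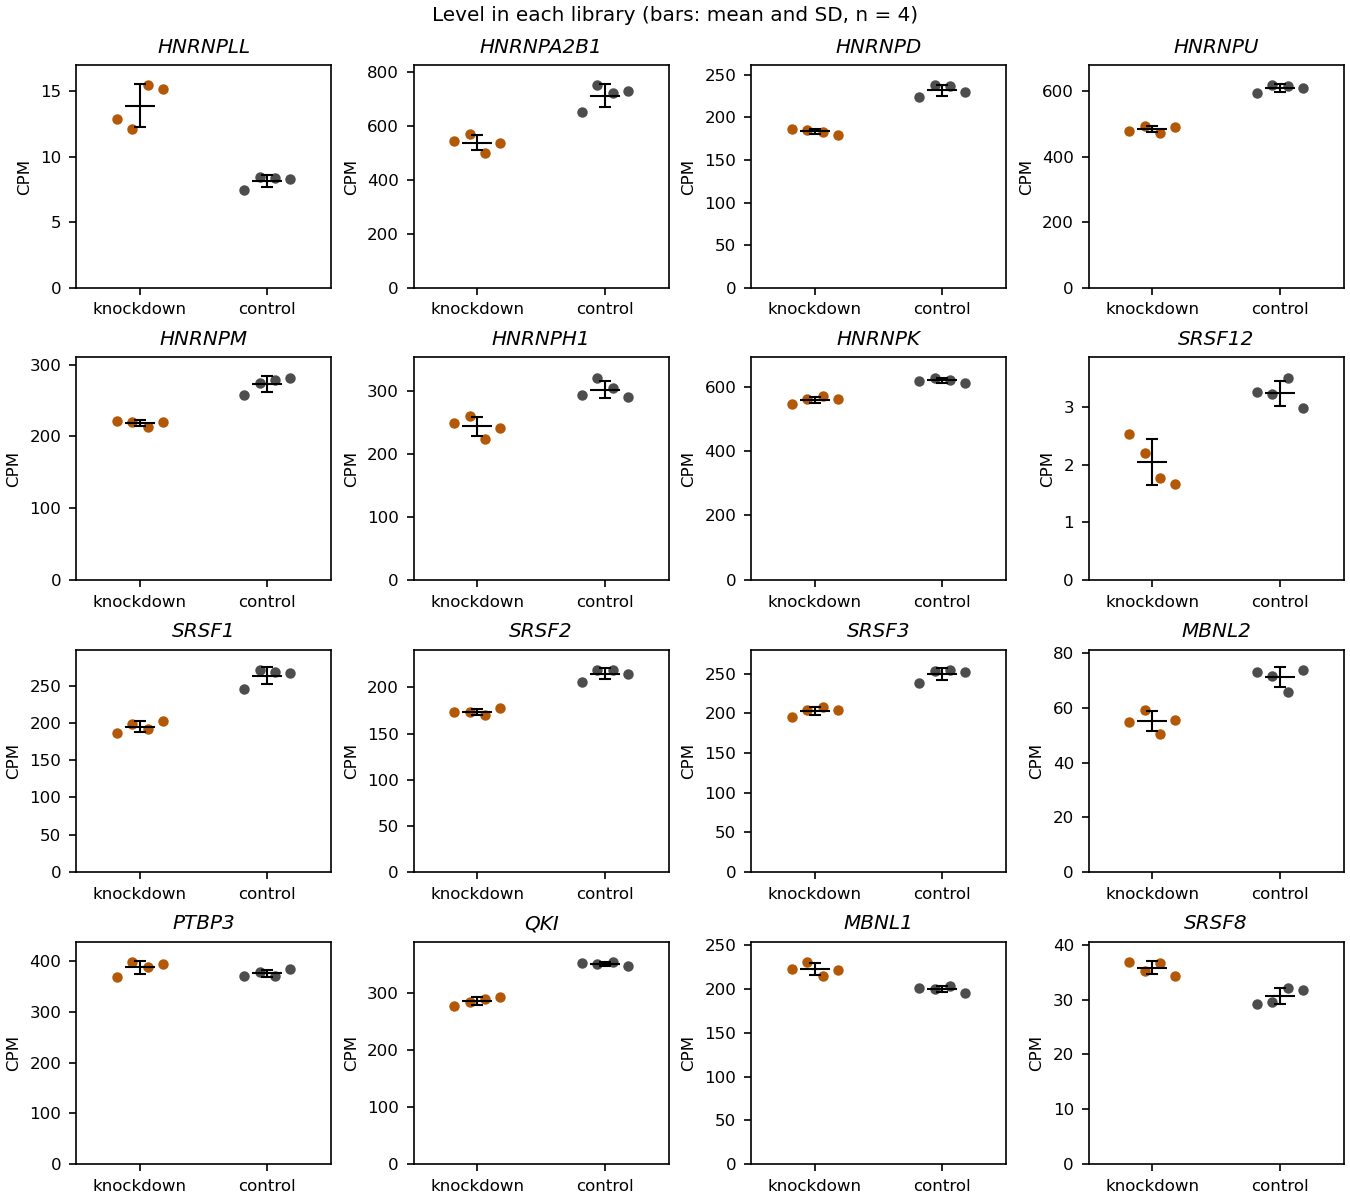
Level in CPM (y axis, from 0) in each library of knockdown (left, orange) and control (right, grey), with mean and SD over 4 libraries, for the members given library by library. HNRNPLL, MBNL1 and SRSF8 were higher in every knockdown library, PTBP3 overlapped, and the other genes were lower in every knockdown library.

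Among the SR genes, the canonical members split into some that fell and some that did not pass. SRSF1, the founding SR protein, had 186, 198, 192 and 203 CPM in knockdown libraries, against 246, 271, 268 and 267 CPM in control libraries. Control library 1 lay below the other controls and above all knockdown libraries. The level fell to 74.1% of control (log2 -0.43, SE 0.0349, edgeR adjusted p = 1.99e-11), which was the smallest adjusted p of any member.

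SRSF2, a marker of nuclear speckles that is mutated in myelodysplasia, had 174, 173, 170.3 and 178 CPM in knockdown libraries, against 206, 219, 219.2 and 214 CPM in control libraries. The groups were tight and apart (log2 -0.31, SE 0.0315, edgeR adjusted p = 2.84e-09). SRSF3, which links splicing to mRNA export, had 195, 204, 208 and 204.3 CPM in knockdown libraries, against 239, 253, 255 and 252.7 CPM in control libraries, again without overlap (log2 -0.30, SE 0.0322, edgeR adjusted p = 5.53e-09). SRSF7, the member with a zinc knuckle, fell by 0.20 on the log2 scale (SE 0.0356, edgeR adjusted p = 2.04e-05).

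SRSF12, a rarely expressed relative of SRSF10, had 59, 56, 41 and 42 counts in knockdown libraries, against 87, 86, 74 and 77 counts in control libraries. At 2.04 ± 0.402 CPM in knockdown and 3.25 ± 0.217 CPM in control libraries it had the largest negative log2 change of any member (-0.67, SE 0.154, edgeR adjusted p = 0.000615), with the widest error of those called. SRSF8, an intronless retrocopy of SRSF2, rose while its parent gene fell. It had 36.9, 35.2, 36.7 and 34.4 CPM in knockdown libraries, against 29.1, 29.6, 32.1 and 31.7 CPM in control libraries (log2 0.23, SE 0.0474, edgeR adjusted p = 0.000217).

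The SR genes SRSF4, SRSF5, SRSF6, SRSF9, SRSF10 and SRSF11 did not pass the test, with log2 differences from -0.09 for SRSF10 to 0.05 for SRSF4 and standard errors of 0.0312 to 0.0394. SRSF6 had 187 ± 3.54 CPM in knockdown and 189 ± 4.53 CPM in control libraries, and SRSF5 had 174.0 ± 9.51 and 169 ± 7.61 CPM. SRSF10, which represses splicing when dephosphorylated, was close to the threshold (edgeR adjusted p = 0.0556) and passed it without knockdown library 2 (0.0235) or control library 1 (0.00472). SRSF9 passed it without control library 1 (edgeR adjusted p = 0.022), both genes then being lower in knockdown. Both TRA2 genes, whose proteins bind GA-rich enhancers, were lower. TRA2B fell by 0.18 (SE 0.0362, edgeR adjusted p = 0.000131) with separate groups, and TRA2A fell by 0.14 (SE 0.046, edgeR adjusted p = 0.0151) with overlapping groups. The TRA2A call did not hold without knockdown library 1 (adjusted p = 0.0744), knockdown library 3 (0.0521) or control library 2 (0.0803), over a range of 0.00468 to 0.0803 in edgeR and DESeq2 fits.

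Among the other regulators, muscleblind-like genes went in opposite directions. MBNL2, which like its paralogs is sequestered by expanded repeats in myotonic dystrophy, had 54.8, 59.4, 50.7 and 55.8 CPM in knockdown libraries, against 73.1, 71.8, 65.9 and 74.0 CPM in control libraries. It fell to 77.4% of control (log2 -0.37, SE 0.0451, edgeR adjusted p = 1.18e-07). MBNL1 had 223.5, 231, 215 and 222 CPM in knockdown libraries, against 201, 199.7, 203 and 195 CPM in control libraries, and rose (log2 0.16, SE 0.0314, edgeR adjusted p = 0.000114). Neither gene overlapped between the groups. MBNL3, the remaining paralog, is no member but stands on a list of further regulators and was singled out after its values were seen. It had 11.7 ± 0.758 CPM in knockdown and 17.9 ± 1.32 CPM in control libraries (log2 -0.61, SE 0.0681, edgeR adjusted p = 1.26e-08).

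QKI, a STAR-family protein that promotes circular RNAs and mesenchymal splicing, had 278, 284, 290.4 and 293 CPM in knockdown libraries, against 352, 351, 355 and 347 CPM in control libraries. The control libraries were tight and all above the knockdown libraries (log2 -0.29, SE 0.0297, edgeR adjusted p = 1.85e-09). RBFOX2 rose, with 148 ± 2.88 CPM in knockdown and 136.5 ± 1.03 CPM in control libraries (log2 0.12, SE 0.0311, edgeR adjusted p = 0.00247). CELF1, which often acts against MBNL proteins on the same exons, had a log2 difference of 0.06 (SE 0.0342, edgeR adjusted p = 0.18).

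The polypyrimidine tract binding genes changed little. PTBP1 fell to 284 ± 5.70 CPM in knockdown, against 303 ± 8.78 CPM in control libraries, and the groups did not overlap (log2 -0.09, SE 0.0309, edgeR adjusted p = 0.0139). The PTBP1 call did not hold without knockdown library 2 (adjusted p = 0.0613) or control library 1 (0.054), over a range of 0.00451 to 0.0613 in edgeR and DESeq2 fits. PTBP2, the neuronal paralog whose transcript PTBP1 is known to repress, had 19.0 ± 0.837 CPM in knockdown and 17.4 ± 1.45 CPM in control libraries (log2 0.12, SE 0.062, edgeR adjusted p = 0.095, and 0.0441 without control library 4). PTBP3, the highest of them in CPM, had 369, 399, 389 and 396 CPM in knockdown libraries, against 370.4, 379, 372 and 385 CPM in control libraries, which overlapped (log2 0.04, SE 0.0311, edgeR adjusted p = 0.252). Per kilobase of merged exons, PTBP3 had 47.1 ± 1.63 CPM in knockdown and 45.7 ± 0.815 CPM in control libraries. PTBP1 had 41.3 ± 0.828 and 44.0 ± 1.27 CPM per kilobase, within the spread of PTBP3 in control.

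The epithelial regulators were scarce in both groups. ESRP1 had 1, 8, 2 and 14 counts in knockdown libraries, against 3, 2, 1 and 0 counts in control libraries, and was not tested. ESRP2 had 11.9 ± 0.742 CPM in knockdown and 12.2 ± 0.393 CPM in control libraries, with a log2 difference of -0.03 (SE 0.0692, edgeR adjusted p = 0.718). Both levels were far below those of RBFOX2 and QKI.

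Ratios of counts within a library, which need no scaling, showed the shifts between pairs of members. Library by library, MBNL1 had 4.08, 3.89, 4.24 and 3.97 counts for each count of MBNL2 in knockdown, against 2.76, 2.78, 3.09 and 2.63 in control. The ratio of RBFOX2 to QKI ran from 0.496 to 0.534 in knockdown and from 0.387 to 0.390 in control, and that of SRSF8 to SRSF2 from 0.193 to 0.215 and from 0.135 to 0.148. SRSF5 to SRSF1 ran from 0.840 to 0.981 in knockdown and from 0.610 to 0.661 in control, and HNRNPUL1 to HNRNPU from 0.612 to 0.661 and from 0.451 to 0.497. These ratios and that of HNRNPA1 to HNRNPA2B1 (0.991 to 1.12 in knockdown, 0.798 to 0.900 in control) were without overlap. The ratios of TRA2A to TRA2B (0.366 to 0.391 in knockdown, 0.350 to 0.386 in control), HNRNPH2 to HNRNPH1 (0.362 to 0.391 and 0.349 to 0.405) and PTBP2 to PTBP1 (0.0626 to 0.0704 and 0.0504 to 0.0630) overlapped. The pairs were chosen with the fold changes known, so the ratios are a description.

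**Figure D3:**
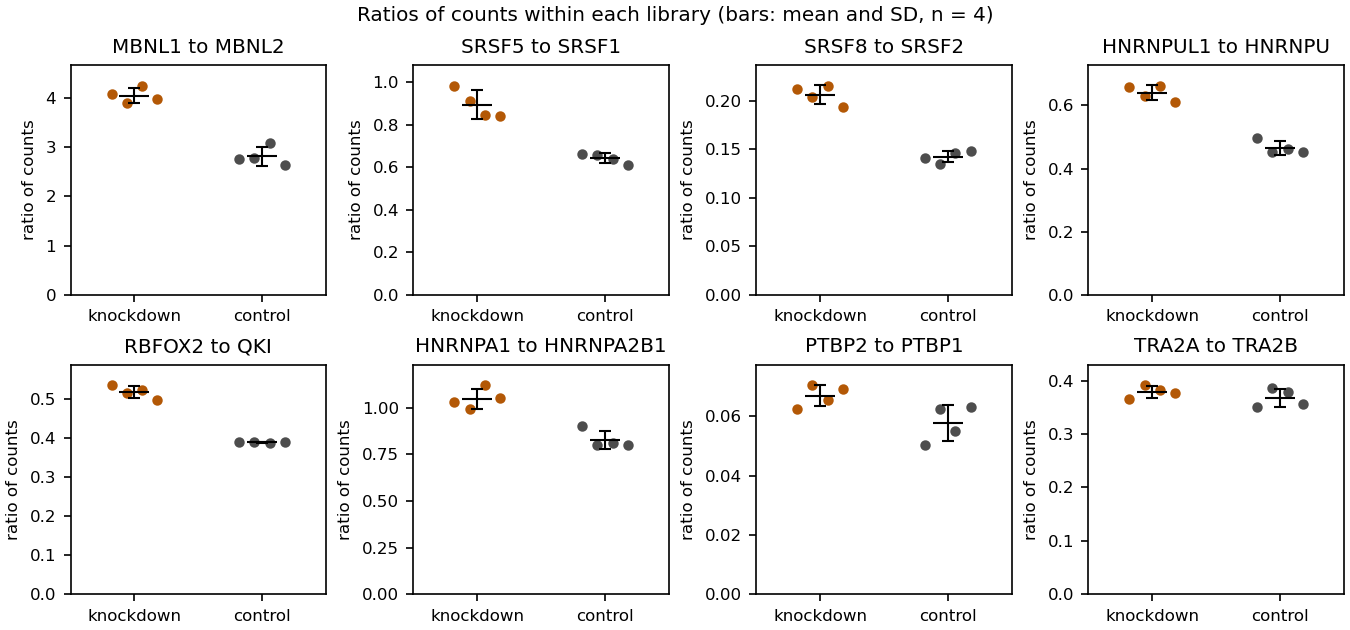
Ratio of the counts of a pair of genes within each library (y axis, from 0) in knockdown (left) and control (right), with mean and SD over 4 libraries. For the pairs MBNL1 to MBNL2, SRSF5 to SRSF1, SRSF8 to SRSF2, HNRNPUL1 to HNRNPU, RBFOX2 to QKI and HNRNPA1 to HNRNPA2B1 every knockdown library lies above every control library, while PTBP2 to PTBP1 and TRA2A to TRA2B overlap.

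Levels between genes were compared per kilobase of merged exons. On this scale HNRNPA1 stood at 111 ± 0.547 CPM per kb in knockdown and 116 ± 1.41 in control libraries, and HNRNPK at 109 ± 1.84 and 121 ± 1.39 (SD, n = 4). The order of these 2 genes differed between the groups, and in knockdown they differed by less than their spread. HNRNPAB (98.3 ± 2.38 in knockdown, 113 ± 3.45 in control) and HNRNPF (94.0 ± 2.06 and 104 ± 1.59) came next. The most abundant SR genes per kb were SRSF1 (58.3 ± 2.15 and 78.7 ± 3.44) and SRSF2 (57.6 ± 1.03 and 71.2 ± 1.98), which did not differ beyond their spread in knockdown. QKI stood at 16.5 ± 0.385 and 20.2 ± 0.196, and HNRNPLL at 2.35 ± 0.278 and 1.38 ± 0.0752. Merged exons include those of retained-intron transcripts, which lengthens the divisor for genes that have them.

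**Figure D4:**
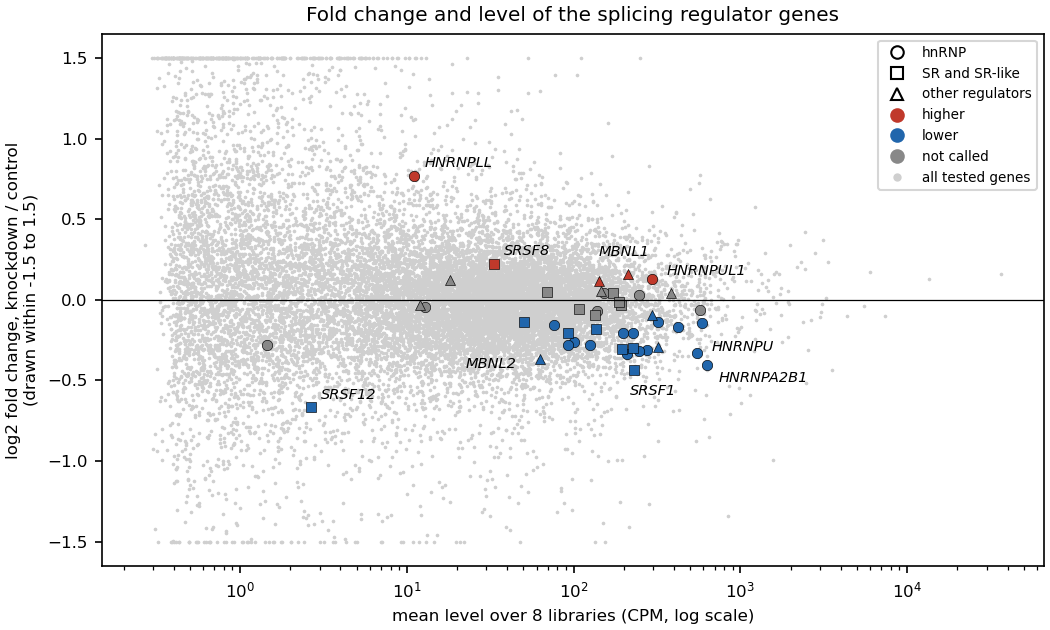
Mean level over 8 libraries (CPM, log axis) against log2 fold change (knockdown over control) for all 16884 tested genes in grey and for the members by role group (shape) and call (colour), with larger folds drawn at the edge of the range shown. Most members lie at high levels and below 0, with HNRNPLL at 0.77 above and SRSF12 at -0.67 below the rest.

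Annotated transcript types, which the choice by name did not use, differed between the role groups. In GENCODE 29, at least 1 transcript marked for nonsense-mediated decay was annotated for 31 of the 45 tested members (68.9%), against 42.5% of 13590 tested protein-coding genes. These were all 14 SR and SR-like genes, 13 of 22 hnRNP genes (59.1%) and 4 of 9 other regulators (44.4%), the last close to the share of tested protein-coding genes. A retained-intron transcript was annotated for 30 members (66.7%), against 56%. The median number of annotated transcripts was 11 for the members and 7 for tested protein-coding genes. HNRNPU had 9 annotated decay transcripts, SRSF7 had 6, and HNRNPH1 and HNRNPDL had 4 each. Whether the number of such transcripts went with the direction of change was not tested. The counts are per gene, so the share of such transcripts was not measured. In 4 members more than 25% of exon bases also belong to another annotated gene, so their values are less certain. The gene sharing most lies on the same strand for SRSF1 (60.7%) and HNRNPUL2 (44.1%), where a strand setting could not separate the reads. It lies on the opposite strand for SRSF9 (46.2%, GATC) and SRSF2 (36.7%, MFSD11), and no source used here states whether counting used strand.

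The genes of 5 further lists are set against the shares over all genes tested, 25.9% lower and 25.2% higher, or 37.9% and 31.4% at 100 CPM or more. A list of genes that act on SR proteins held kinases, importers and the phosphatase genes PPP1CA, PPP1CB and PPP1CC. Among its 13 tested genes there were 8 falls and 3 rises, 2 genes did not pass, and the median log2 change was -0.16. SRPK1, the main cytoplasmic kinase of SR proteins, fell to 108 ± 4.39 CPM in knockdown, against 169 ± 2.42 CPM in control libraries (log2 -0.65, SE 0.0337, edgeR adjusted p = 1.48e-15), a larger change than that of any SR gene past 100 CPM. PRPF4B, a kinase of the spliceosome, fell by 0.23 (SE 0.0362). DYRK1A (log2 0.22, SE 0.0426) and the nuclear SR kinase CLK3 (log2 0.23, SE 0.0468) rose.

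Core spliceosome genes fell or did not pass, with few rises. Among 40 tested there were 19 falls and 3 rises, and 18 did not pass (median log2 change -0.07). The Sm ring genes SNRPE, with 36.4 ± 0.915 CPM in knockdown and 48.9 ± 3.15 CPM in control libraries (log2 -0.42, SE 0.0466), and SNRPD1 (log2 -0.40, SE 0.0393) fell. The RNA helicase gene AQR (log2 0.31, SE 0.0372) and the branch-site complex gene SF3A2 (log2 0.14, SE 0.0419) rose. Among 18 SR-related cofactors there were 5 falls and 5 rises, and 8 did not pass (median -0.00991), close in both directions to the 25.9% and 25.2% over all genes, with BCLAF1 (log2 -0.25, SE 0.038) and LUC7L3 (log2 -0.22, SE 0.0404) lower, and SRRM2, a scaffold of nuclear speckles (log2 0.24, SE 0.0425), and ACIN1 (log2 0.16, SE 0.0341) higher.

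Among 33 further RNA-binding regulators there were 13 falls and 10 rises, and 10 did not pass (median -0.04). The paraspeckle protein gene NONO had 316 ± 5.37 CPM in knockdown and 426 ± 5.40 CPM in control libraries (log2 -0.43, SE 0.0292, edgeR adjusted p = 4.33e-13). CIRBP, a cold-inducible RNA-binding protein gene, rose to 143.5 ± 4.15 CPM in knockdown, against 114 ± 5.60 CPM in control libraries (log2 0.33, SE 0.0361). CELF2, a paralog of CELF1, rose at a low level, with 6.34 ± 0.548 CPM in knockdown and 2.84 ± 0.118 CPM in control libraries (log2 1.16, SE 0.112, edgeR adjusted p = 7.47e-10). Among 15 nonsense-mediated decay genes there were 6 falls and 4 rises, and 5 did not pass (median -0.07). The share of falls was above the 25.9% over all genes and near the 37.9% of genes at 100 CPM or more. The share of rises was near the 25.2% over all genes and under the 31.4% of genes at 100 CPM or more. The exon junction genes MAGOH (log2 -0.33, SE 0.0574) and MAGOHB (log2 -0.30, SE 0.0562) fell, while the endonuclease gene SMG6 (log2 0.25, SE 0.0339) and the helicase gene UPF1 (log2 0.16, SE 0.0347) rose.

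**Figure D5:**
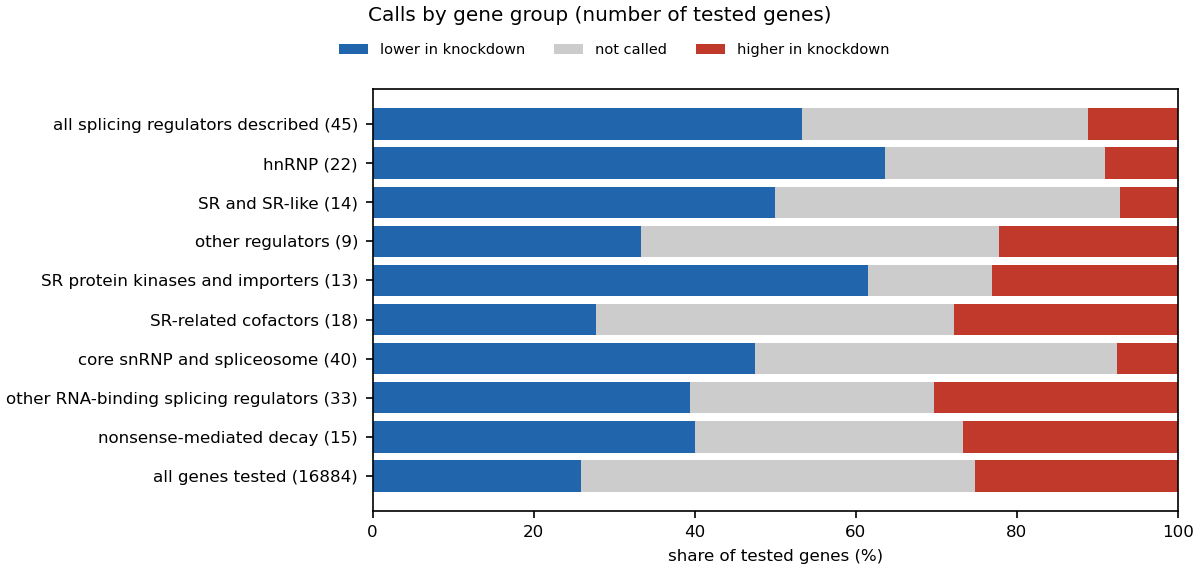
Share of tested genes (x axis, %) that were lower (blue), not called (grey) or higher (red) in knockdown, for all splicing regulators described, their role groups, the 5 further lists and all tested genes, with the number tested in brackets. Of the 45 members 24 were lower and 5 higher, against 25.9% and 25.2% of all genes. The list of SR protein kinases and importers also holds phosphatase genes.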

How the data were processed

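Per the labels' protocols, poly(A)-enriched RNA with an integrity number above 7.0 was made into directional libraries. The deposited table holds the authors' whole-number read counts per gene for 8 libraries. FastQC, STAR, featureCounts, DESeq2 and hg19 are named in the submitters' processing notes; the sources used here do not give versions, annotation, strand setting or the treatment of ambiguous reads. Of 60609 rows, 1 with a missing cell and 44 Y copies of pseudoautosomal genes with 0 counts were left out. Symbols, gene types, exon lengths and transcript types came from a gene name table and GENCODE 29, which describes GRCh38, and promoters from RefSeq on GRCh38.p14. 1 gene with an hnRNP symbol and a few genes of the marker and further lists are not reported here.

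The counts were fitted for all genes that passed filterByExpr with TMM scaling and the robust quasi-likelihood F test of edgeR (edgeR 4.0.16, limma 3.58.1, R 4.3.3; tables and figures in Python 3.11.15 with pandas 2.3.3 and matplotlib 3.10.9). Fold changes are log2 of knockdown over control, SE come from the F statistic, and p-values are two-sided and Benjamini-Hochberg adjusted over all 16884 genes tested, with 0.05 as threshold. The fit was tested on simulated counts. An exact two-sided permutation test over 70 assignments of the libraries gave p = 0.0286 for ATOH8, the smallest it can give. The chi-square per gene between libraries of a group ran from 1.95 to 4.48, so none were duplicates.

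The members and gene lists were chosen with earlier results of these data known. Values are given library by library for called members with an absolute log2 change of at least 0.3 (up to 6 per role group) and the 2 most abundant per role group, and additionally for MBNL1 and SRSF8; of each further list the 2 rises and 2 falls with the smallest adjusted p are named. Alternatives were DESeq2 size factors, DESeq2 1.42.0 itself (Wald test), a replicate block, a looser filter (1 count in total) or a stricter one (1 CPM or more in 4 libraries), and leaving out each library.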

Additional observations from a re-analysis of the deposited data

Results flagged for a closer look

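In groups of 4 libraries, 11 of 138 groups of values checked had 1 library far from the other 3, where chance gives about 6.9. Among the members, control library 1 was low for HNRNPLL (7.50 CPM, the others 8.34 to 8.44), SRSF1 (246 CPM, the others 267 to 271) and SRSF3 (239 CPM, the others 253 to 255), and control library 3 for TRA2B (138 CPM, the others 145.7 to 146). Control library 2 was high for HNRNPA1 (599.5 CPM, the others 584 to 586). In knockdown, library 1 was low for HNRNPCL1 (0.860 CPM, the others 1.42 to 1.47), library 3 for HNRNPM (213 CPM, the others 220.2 to 221) and library 4 for HNRNPUL2 (149 CPM, the others 154.8 to 155). On the further lists, knockdown library 3 was low for DYRK1A (48.0 CPM, the others 51.4 to 51.7), knockdown library 1 was high for UPF1 (128 CPM, the others 117 to 119), and control library 3 was high for SMG6 (77.6 CPM, the others 75.3 to 75.5). Control library 1 was the lowest of its group for 31 of the 45 tested members, and without it 25 members fell and 5 rose.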

How the results depend on the processing

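The counts of members that fell (24) and rose (5) ran from 23 to 26 and from 5 to 6 over all alternatives, and from 23 to 25 and 5 to 6 when 1 library was left out. The counts of the 5 further lists and of all genes stayed within 1.5 times, and the log2 change of ATOH8 ran from -1.34 to -1.20. All 29 member calls were kept under the 5 alternatives that use all libraries. The calls of TRA2A and PTBP1 did not hold without some single libraries, as given above. Under the replicate block 26 members fell and 5 rose, HNRNPA1 (log2 -0.06, edgeR adjusted p = 0.0458) and SRSF10 (-0.09, 0.0216) being added. Same-numbered libraries correlated at only -0.00671 to 0.0540 in their deviations from the group means, so the numbers were not taken as pairs. Knockdown libraries 1, 2 and 4 did correlate best with the control library of their own number, and knockdown library 3 did not. ESRP1, untested under the filter, was called without it (log2 2.00, edgeR adjusted p = 0.0178) but not by DESeq2 (adjusted p = 0.105). Differences near 0 changed sign for HNRNPA1L2 without control replicate 3 (range when 1 library was left out -0.107 to 0.00743) and SRSF6 without control replicate 2 (-0.0265 to 0.00126). Counts as low as those of ESRP1 and HNRNPCL1 limit what could be detected.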

Other observations

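Tissue-restricted relatives of the members were detected at low levels. These genes were on a fixed list but named after their values were seen. NOVA1, a neuronal splicing regulator, rose to 5.86 ± 0.434 CPM in knockdown, against 3.35 ± 0.324 CPM in control libraries (SD, n = 4; log2 0.80, SE 0.112, edgeR adjusted p = 6.55e-07), and the groups did not overlap. RBFOX3, the neuronal paralog of RBFOX2 known as the NeuN antigen, had 7, 4, 3 and 10 counts in knockdown libraries, against 17, 17, 17 and 23 counts in control libraries. It fell (log2 -1.57, SE 0.340, edgeR adjusted p = 0.000308) while RBFOX2 rose, and its counts were too few for a precise fold.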
